A study of Bos grunniens with 18 samples.

Results

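The 9 genes described here code for receptors of vitamin A-derived signals and for proteins that such receptors recruit in the nucleus. They are the retinoic acid receptors RARA and RARG, the retinoid X receptors RXRA and RXRB, the coactivators NCOA1, NCOA2 and NCOA3, and the corepressors NCOR1 and NRIP1. They were the genes with these names among the 20607 genes of the deposited yak blood table, in which each of the 9 had 1 entry. The family was chosen by name while stage differences of these same libraries were in view, and the count and FPKM values had shown NCOA2 among the lower genes of pregnancy. The stage differences of the 9 genes are therefore given as a description, and no p-value of a single one of them is printed.

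The libraries came from whole blood of adult female yaks (*Bos grunniens*), 4 to 8 years old, at 3 reproductive stages, the anestrus period (Y-A), estrus (Y-E) and gestation (Y-P, pregnant cows), with 6 libraries in each stage. The herd had been brought into estrus with a progesterone pessary, PGF2α and GnRH and was then artificially inseminated, so Y-E was a synchronized estrus. Per the methods, blood of 6 cows was tracked, but neither labels nor methods tie a replicate number to a cow, and p-values measure the spread between these libraries only. Blood was taken into EDTA and TRIzol LS, and the RNA was selected by its poly(A) tail. In bulk blood, fewer cells of a type and less RNA per cell cannot be told apart.

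Retinoic acid, made from vitamin A inside cells, binds RARs, and each RAR works as a pair with an RXR on DNA. Without ligand the pair holds corepressors such as NCOR1, which bring histone deacetylases, and ligand binding exchanges these for coactivators of the p160 family, NCOA1 to NCOA3, which bring histone acetyltransferases such as EP300 and CREBBP. In blood, RARA is known above all for its role in the maturation of granulocytes, and RXRs also pair with the vitamin D, thyroid hormone, PPAR and LXR receptors.

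The table gives a position for each gene on the Ensembl yak build used for the deposited table. RARA (ENSBGRG00000019399) lies on the minus strand of chromosome 19 at 25719727 to 25745088, and NCOR1 (ENSBGRG00000011022) on the minus strand of the same chromosome at 33872241 to 33988533. RXRA (ENSBGRG00000005191) and NCOA1 (ENSBGRG00000017177) share chromosome 9, at 14719582 to 14830409 on the plus strand and at 99223493 to 99326687 on the minus strand. RARG lies on chromosome 5 at 80842669 to 80861177, RXRB on chromosome 24 at 29392073 to 29398583, NCOA2 on chromosome 18 at 22604266 to 22920409, NCOA3 on chromosome 12 at 71895225 to 71961639 and NRIP1 on chromosome 1 at 15063990 to 15067268. NCOA2 spans 316144 bp and NRIP1 3279 bp. All 9 are annotated as protein coding. NCOA2 overlaps a gene model on its own strand and NCOA1 one on the opposite strand, and these overlapping models held at most 3 and 24 counts in any library.

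The 18 libraries held between 30247267 and 48401076 counts. Hemoglobin chain genes made up 3.1% to 16.7% of all counts in Y-A libraries, 0.0899% to 0.713% in Y-E replicates 1 to 5, 8.36% in Y-E replicate 6 and at most 0.376% in Y-P. Y-E replicate 6 is absent from the study's supplementary tables, and where it moved a count of called genes given here, the count without it is added. In Y-P replicates 2, 3 and 5, long genes were low against short genes. The median log2 deviation from the 18-library mean of the longest quartile of genes minus that of the shortest was -0.30, -0.43 and -0.21, against -0.06 to 0.20 in the other 15 libraries. These 3 libraries were among the 5 deepest. The reason was not given in the sources used here.

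Per unit of gene length, RARA was by far the most abundant of the 9. FPKM, the deposited unit that scales fragments by gene length and library size, was used to compare genes with each other. RARA had 189 ± 60.3 FPKM (mean ± SD over 18 libraries), more than 97.5% of the 14508 genes tested, and it was above the next gene in 18 of 18 libraries. RARG with 57.5 ± 13.9 FPKM and RXRA with 57.0 ± 20.8 FPKM could not be ordered, since RARG was the higher of the pair in 7 of 18 libraries. NCOR1 had 44.1 ± 5.99 FPKM and lay below RXRA in 12 of 18 libraries, namely in 6 of 6 of Y-E, 4 of 6 of Y-A and 2 of 6 of Y-P.

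Below these came NCOA2 with 36.8 ± 11 FPKM and NCOA3 with 36.5 ± 5.29 FPKM. As for NCOR1 and RXRA, their order differed between the stages. NCOA2 was above NCOA3 in 5 of 6 Y-A and 4 of 6 Y-E libraries and in 0 of 6 Y-P libraries. RXRB had 27.1 ± 5.5 FPKM, NCOA1 22.2 ± 3.95 FPKM and NRIP1 12.1 ± 3.06 FPKM. RXRB was above NCOA1 in 14 of 18 libraries, and NRIP1 was below NCOA1 in 18 of 18.

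Between stages, each gene was compared as CPM, the deposited counts per library total, with totals scaled with the TMM factors of edgeR. Fold changes and their standard errors (SE) came from the edgeR quasi-likelihood fit over all 14508 genes that passed the low-count filter, which all 9 genes passed. A gene counts as passing at a Benjamini-Hochberg adjusted p under 0.05 over those genes, and as changed by at least 2-fold when its absolute log2 fold change also reached 1.

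RARA and RARG, the more abundant of the retinoic acid receptors, had their highest median in estrus and their lowest in pregnancy. RARA had a lowest, median and highest value of 740, 800 and 910 CPM for anestrus, of 809, 1120 and 1510 CPM in Y-E and of 455, 482 and 647 CPM in Y-P. Each Y-P library lay below each Y-A and each Y-E library, while 5 of 6 Y-E libraries lay above all Y-A libraries. RARA was higher in Y-E in 6 of 6 pairs of same-numbered Y-E and Y-A libraries, a pairing taken from the data and not from the labels. That count was 4 of 6 for NCOA2 and NCOR1, 3 of 6 for NCOA3 and 2 of 6 for RXRB, NCOA1 and NRIP1. The share of all tested genes with such pair counts is not given here, so nothing is read from them. The log2 fold change of RARA was -1.18 ± 0.14 (SE) in Y-P vs. Y-E, -0.68 ± 0.14 in Y-P vs. Y-A and 0.50 ± 0.14 in Y-E vs. Y-A.

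RARG, the second retinoic acid receptor and the one best known from epithelia and blood stem cells, had the same order of stages at a lower level. Its lowest, median and highest values were 159, 186 and 216 CPM in the Y-A libraries, 196, 242 and 320 CPM in Y-E and 118, 126 and 150 CPM in Y-P. The Y-P libraries again lay below all others, and Y-A and Y-E overlapped, with Y-E higher in 5 of 6 same-numbered pairs. The RARG log2 fold change was -0.91 ± 0.12 in Y-P vs. Y-E, -0.50 ± 0.12 in Y-P vs. Y-A and 0.41 ± 0.12 in Y-E vs. Y-A.

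The 2 RXR genes, the common partners of the RARs, differed from each other. RXRA had a lowest, median and highest value of 116, 181 and 258 CPM in the Y-A libraries, 206, 272 and 381 CPM in Y-E and 92.0, 116 and 157 CPM in Y-P. All Y-P libraries lay below all Y-E libraries, but Y-A overlapped both other stages and was spread widely, with a coefficient of variation of 30.3% against 7.11% for RARA. Y-E was the higher in 5 of 6 same-numbered pairs with Y-A. For RXRA the log2 fold change was -1.19 ± 0.20 in Y-P vs. Y-E, -0.61 ± 0.20 in Y-P vs. Y-A and 0.58 ± 0.20 in Y-E vs. Y-A.

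RXRB had 53.7, 88.6 and 91.7 CPM in the Y-A libraries, 54.0, 86.4 and 93.2 CPM in Y-E and 61.4, 73.8 and 119 CPM in Y-P. The 3 stages overlapped throughout. The low values of Y-A and Y-E came from replicate 6 of each, the libraries with 16.7% and 8.36% of hemoglobin counts. RXRB had a log2 fold change of 0.05 ± 0.18 in Y-P vs. Y-E and of 0.02 ± 0.18 in Y-P vs. Y-A, and both turned negative without Y-P replicate 2 or 3, at -0.11 to -0.04. The first also turned to -0.04 without Y-E replicate 6 and the second to -0.10 without Y-A replicate 6.

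**Figure D1:**
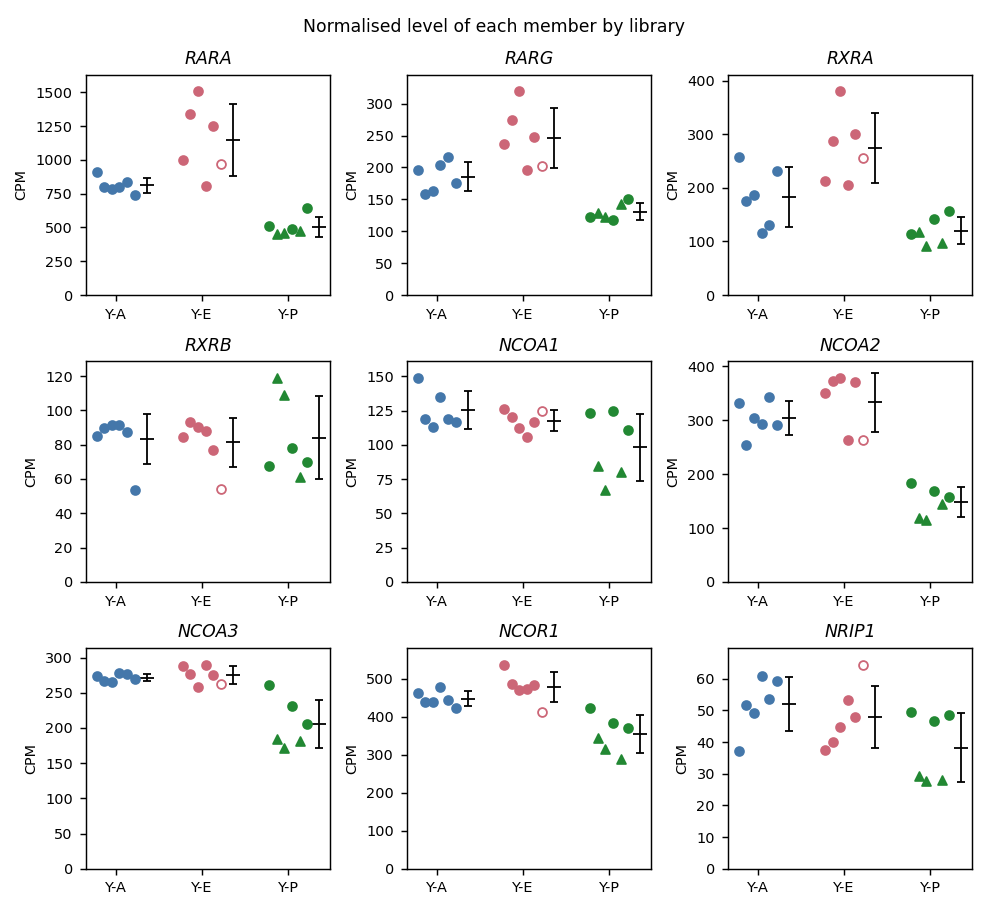
Level of each of the 9 genes in CPM (vertical axes from 0) in the 6 libraries of each stage; circles and triangles are libraries, with triangles for Y-P replicates 2, 3 and 5 and an open circle for Y-E replicate 6, and the black bar beside each stage is the mean ± SD. The Y-P libraries of RARA (455 to 647 CPM) and NCOA2 (115 to 184 CPM) sit below all libraries of Y-A and Y-E, whereas RXRB overlaps in all 3 stages.

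NCOA2 (also known as TIF2 or GRIP1), a p160 coactivator, was the coregulator with the clearest separation of pregnancy from the other stages. It had a lowest, median and highest value of 255, 299 and 343 CPM in the Y-A libraries, 264, 361 and 379 CPM in Y-E and 115, 151 and 184 CPM in Y-P. Every Y-P library lay below every Y-A and Y-E library, and Y-A and Y-E overlapped. The log2 fold change of NCOA2 was -1.17 ± 0.13 in Y-P vs. Y-E, -1.04 ± 0.13 in Y-P vs. Y-A, and 0.14 ± 0.13 in Y-E vs. Y-A.

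The other p160 coactivators had smaller differences. NCOA3 (SRC-3), which like NCOA2 binds liganded receptors, had 265, 272 and 278 CPM in the Y-A libraries, 258, 276 and 290 CPM in Y-E and 171, 195 and 261 CPM in Y-P. The Y-A values of NCOA3 were the tightest of the 9 genes, with a coefficient of variation of 2.08%, and those of Y-P were wider, at 16.6%. All Y-P libraries lay below all Y-A libraries, and 5 of 6 lay below all Y-E libraries. Its log2 fold change was -0.42 ± 0.10 in Y-P vs. Y-E and -0.40 ± 0.10 in Y-P vs. Y-A.

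NCOA1 (SRC-1), the first described of the 3, had 113, 119 and 149 CPM in the Y-A libraries, 106, 118 and 126 CPM in Y-E and 66.9, 97.6 and 125 CPM in Y-P. Y-P replicates 2, 3 and 5, the libraries with low long genes, had 66.9 to 84.5 CPM, and Y-P replicates 1, 4 and 6 had 111 to 125 CPM, within the range of Y-E. NCOA1 had a log2 fold change of -0.26 ± 0.13 in Y-P vs. Y-E and -0.35 ± 0.13 in Y-P vs. Y-A, and with replicates 1, 4 and 6 as the only Y-P libraries it was 0.02 ± 0.10 and -0.07 ± 0.10.

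NCOR1, the corepressor that carries histone deacetylase HDAC3 to unliganded receptors, had 422, 441 and 477 CPM in the Y-A libraries, 412, 479 and 537 CPM in Y-E and 290, 357 and 424 CPM in Y-P. Only the highest Y-P library reached the range of Y-A, and it exceeded only Y-E replicate 6 among the Y-E libraries. NCOR1 had a log2 fold change of -0.43 ± 0.10 in Y-P vs. Y-E and -0.33 ± 0.10 in Y-P vs. Y-A.

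NRIP1 (RIP140), which binds liganded receptors but recruits repressors, had 37.1, 52.7 and 60.9 CPM in the Y-A libraries, 37.6, 46.3 and 64.5 CPM in Y-E and 27.6, 38.1 and 49.4 CPM in Y-P. As for NCOA1, Y-P replicates 2, 3 and 5 stood low at 27.6 to 29.4 CPM, and replicates 1, 4 and 6 at 46.7 to 49.4 CPM lay within the other stages. Its log2 fold change was -0.33 ± 0.18 in Y-P vs. Y-E and -0.44 ± 0.18 in Y-P vs. Y-A, and 0.01 ± 0.17 and -0.11 ± 0.17 with Y-P replicates 1, 4 and 6 only.

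In Y-E vs. Y-A, 0 of the 9 genes passed the edgeR test in either direction, where 0% of the tested genes passed as higher and 0.0207% as lower, and 0 of the 9 were lower without overlap against 0.172% of the tested genes. RARA, RARG and RXRA had an unadjusted p under 0.05, all 3 higher in Y-E, as had 4.37% of the tested genes. A DESeq2 Wald test called 1 of the 9, RARA, as higher, and 0.963% of the 5814 genes to which DESeq2 gave an adjusted p. The median log2 fold change of the 9 was 0.10, against -0.01 over all tested genes.

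In Y-P vs. Y-A, 0 of 9 passed as higher and 5 as lower, where 2.22% of the tested genes passed as higher and 3.61% as lower. The 5 were RARA, RARG, NCOA2, NCOA3 and NCOR1. NCOA2 alone was lower by at least 2-fold, against 1.09% of the tested genes. RARA, RARG, NCOA2 and NCOA3 were lower without overlap, as were 2.32% of the tested genes. The median log2 fold change of the 9 was -0.44, against 0.03 over all tested genes. Since these comparisons served in choosing the family, nothing is read from the counts.

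NCOR1 passed in Y-P vs. Y-A in 4 of the 18 fits that each left out 1 library, those without Y-A replicate 6, Y-E replicate 1, Y-E replicate 6 or Y-P replicate 1. RARG did not pass when Y-A replicate 5 or Y-P replicate 4 was left out, and RXRA passed only without Y-A replicate 4. With library totals as the only scaling, the median log2 fold change of all genes was 0.19 in Y-P vs. Y-A and 0.18 against Y-E, and RARA and NCOA2 were then the 2 genes passing as lower in Y-P vs. Y-A, with 1.78% of the tested genes. No log2 fold change of the 9 changed sign in the Y-P comparisons under that scaling.

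In Y-P vs. Y-E, 0 of 9 passed as higher and 6 as lower, where 5.77% of the tested genes passed as higher and 8.68% as lower. The 6 were RARA, RARG, RXRA, NCOA2, NCOA3 and NCOR1. RARA, RXRA and NCOA2 were lower by at least 2-fold, against 2.22% of the tested genes, and RARA, RARG, RXRA and NCOA2 were lower without overlap, against 3.84% of the tested genes. The median log2 fold change was -0.43 for the 9 and 0.04 for all tested genes. The counts of 0, 5 and 6 passing genes in the 3 comparisons were the same without Y-E replicate 6, where 3.81% of the tested genes passed as lower in Y-P vs. Y-A and 8.03% in Y-P vs. Y-E. Both Y-P comparisons use the same Y-P libraries.

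**Figure D2:**
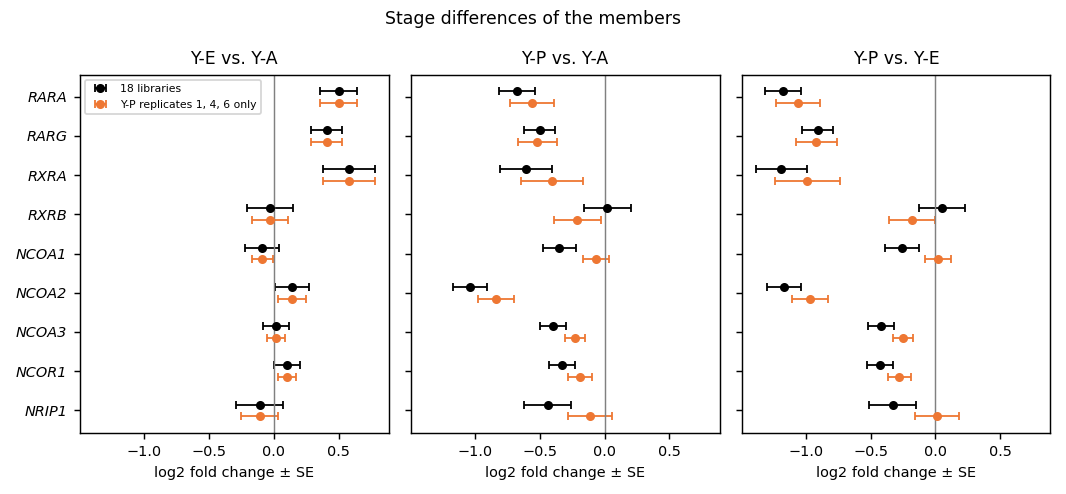
Log2 fold change ± SE (horizontal axes) of the 9 genes in the 3 stage comparisons from the edgeR fit, in black with all 18 libraries and in orange with Y-P replicates 1, 4 and 6 as the only pregnancy libraries. Against estrus, RARA stays at -1.06 and NCOA2 at -0.97 in the smaller set, while NCOA1 and NRIP1 move to 0.02 and 0.01.

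In 6 of the 9 genes, RARA, NCOA1, NCOA2, NCOA3, NCOR1 and NRIP1, the 3 Y-P libraries with low long genes were the 3 lowest of Y-P. In RARG, RXRA and RXRB they were not. The share of all tested genes with this order is not given here, so nothing is read from the count. For RARA and NCOA2 the other Y-P libraries also lay below all of Y-A and Y-E, for NCOA3 below all of Y-A, for NCOA1 and NRIP1 they lay within the range of Y-E, and for NCOR1 1 of the 3 reached the other stages. The deposited counts and FPKM imply a length for each gene on a relative scale only. On that scale NCOR1, NCOA2 and NCOA3 ranked above 98.6%, 95.6% and 95.3% of the tested genes. NCOA1, RARA and NRIP1 ranked above 88.2%, 81.3% and 76.7%, and RARG, RXRA and RXRB above 67.6%, 69.3% and 64.6%.

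With Y-P replicates 1, 4 and 6 only, an alternative added after the data were seen, 1 of the 9 genes passed in Y-P vs. Y-A, NCOA2 at -0.84 ± 0.14, and 1.25% of the genes tested in that set passed as lower. RARA at -0.56 ± 0.17 and RARG at -0.52 ± 0.15 did not pass, nor did NCOA3 at -0.23 ± 0.08 and NCOR1 at -0.19 ± 0.09. Against estrus, RARA, RARG at -0.92 ± 0.16, RXRA at -0.99 ± 0.25 and NCOA2 passed in that set, where 4.71% of the tested genes passed as lower, and NCOA3 at -0.25 ± 0.08 and NCOR1 at -0.28 ± 0.09 did not.

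A second added alternative kept all libraries and subtracted from each a smooth trend of level on gene length. It left NCOA2 at -0.94 ± 0.12 in Y-P vs. Y-A and -1.05 ± 0.12 in Y-P vs. Y-E, and RARA at -0.67 ± 0.13 and -1.15 ± 0.13. NCOR1 became -0.19 ± 0.08 in Y-P vs. Y-A, which no longer passed, and -0.24 ± 0.08 in Y-P vs. Y-E. NCOA3 became -0.31 ± 0.07 and -0.29 ± 0.07 and passed in both. With that correction 4.14% of the tested genes passed as lower in Y-P vs. Y-A and 9.04% against Y-E.

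**Figure D3:**
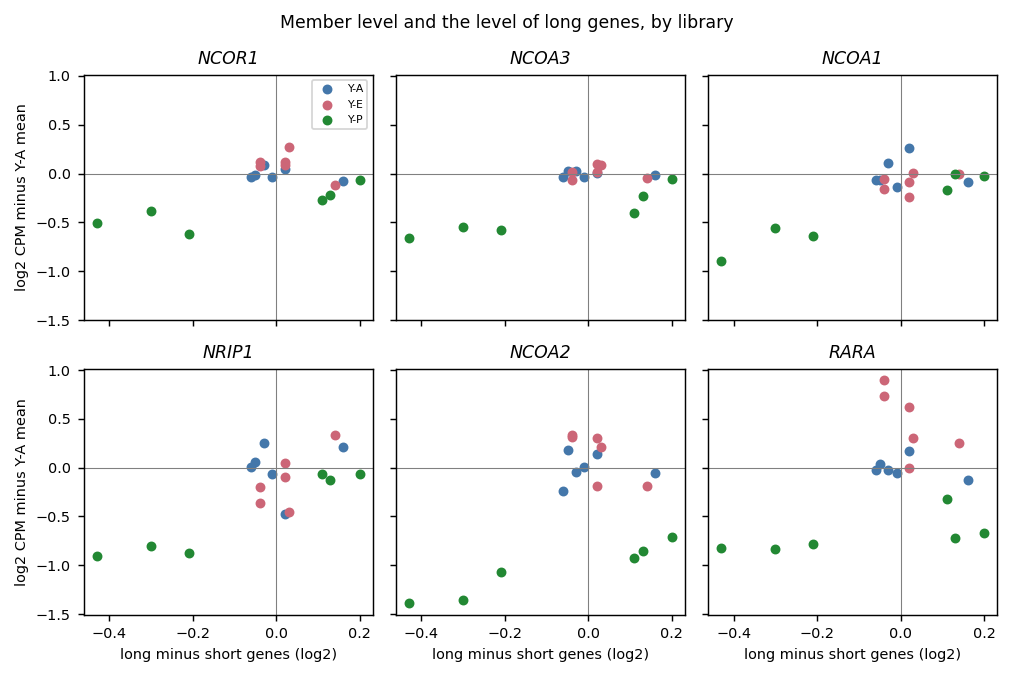
Log2 CPM of 6 genes minus their Y-A mean (vertical axes) against the log2 level of long minus short genes in the same library (horizontal axes), 1 point per library and colored by stage. The 6 genes drawn are those in which the 3 Y-P libraries at -0.43 to -0.21 were the lowest of Y-P. RARG, RXRA and RXRB, where they were not, are left out, so the low place of those libraries within Y-P follows from the choice of genes. All 6 Y-P libraries of NCOA2 lie below the Y-A and Y-E libraries.

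Ratios of 2 genes within a library do not depend on the scaling of that library. The ratio of NCOA2 to NCOR1 in FPKM, a coactivator against a corepressor, had a lowest, median and highest value of 0.804, 0.958 and 1.07 in Y-A, 0.769, 0.979 and 1.11 in Y-E and 0.474, 0.594 and 0.683 in Y-P. All 6 Y-P libraries lay below all 12 others, and the Y-P mean log2 ratio was -0.81 ± 0.19 (SD) against -0.10 ± 0.15 in Y-A and -0.06 ± 0.20 in Y-E. Within the same pregnancy libraries NCOA2 was thus further below its level in the other stages than NCOR1. The ratio restates the fold changes of the 2 genes given above, and NCOA2 was known to be low when the family was chosen. The share of other gene pairs with such a separation is not given here, so nothing is read from it.

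The ratio of RARA to RXRA, the partners of a receptor pair, had 2.49, 3.41 and 5.37 in Y-A, 2.93, 3.16 and 3.65 in Y-E and 2.69, 3.33 and 3.87 in Y-P. The 3 stages overlapped in this ratio, and Y-A was the widest. The mean log2 ratio was 1.84 ± 0.45 (SD) for Y-A, 1.70 ± 0.13 for Y-E and 1.73 ± 0.21 for Y-P.

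The level of blood cell markers differed between the stages as well. Of 13 neutrophil markers listed, 9 were in the table, CXCR1, CXCR2, CD177 and PADI4 were not in it, and MMP8 was at 0 in some libraries. Their summed level was 4820, 6520 and 10600 CPM (lowest, median and highest) for Y-A, 6260, 11600 and 14000 CPM in Y-E, and 3930, 4740 and 7140 CPM in Y-P. The order of stage medians was that of RARA, RARG, RXRA, NCOA2, NCOA3 and NCOR1, but not of RXRB, NCOA1 and NRIP1. The monocyte markers given below had that order as well. Y-E replicates 4 and 6, the lowest Y-E libraries of the neutrophil sum, were also the lowest of Y-E for RARA, RARG and NCOA2. For NCOA3, replicate 4 was the highest of Y-E, at 290 CPM. For RXRA the lowest of Y-E were replicates 4 and 1, at 206 and 212 CPM, and replicate 6 had 256 CPM.

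In Y-P vs. Y-E, 5 of 8 tested neutrophil markers passed as lower in edgeR, among them CSF3R, the G-CSF receptor, at -1.09 ± 0.16 (adjusted p = 0.000426) and S100A12, a calgranulin, at -1.48 ± 0.46 (adjusted p = 0.0368), and 6 passed as lower without Y-E replicate 6. In Y-P vs. Y-A, 1 of 8 passed, as lower. Of all tested genes, 8.68% passed as lower in Y-P vs. Y-E, 8.03% without Y-E replicate 6, and 3.61% in Y-P vs. Y-A. The highest Y-P library of the sum, replicate 3 with 7140 CPM, had 457 CPM of RARA, next to the lowest of Y-P. What part the share of neutrophils had in the receptor differences was not tested.

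T cell markers went the other way, with CD3D and IL7R as the highest. Their summed level over 5 of 9 markers in the table, with CD3E, CD247, CD2 and TRAT1 not in it, was 836 to 1050 CPM in Y-A, 850 to 1000 CPM in Y-E and 1020 to 1720 CPM in Y-P, and 3 of 5 passed as higher in Y-P vs. Y-E. Of all tested genes, 5.77% passed as higher in that comparison. Monocyte markers, led by CSF1R and CD68, summed to medians of 720, 820 and 526 CPM in the 3 stages, over 5 of 6 markers. B cell markers, led by MS4A1 and CD79A, had medians of 1270, 1100 and 1460 CPM, and 0 of 8 passed edgeR in any comparison. Their part in the results for the 9 genes was not tested either.

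Platelet markers over 4 of 7 genes, led by TUBB1 and ITGA2B, had medians of 333, 332 and 199 CPM in Y-A, Y-E and Y-P. Erythroid markers over 6 of 10 genes, led by ALAS2 and HEMGN, had medians of 1600, 156 and 65.8 CPM. Cytotoxic cell markers (PRF1 and NKG7 highest, 3 of 5 in the table) had medians of 198, 190 and 198 CPM, and eosinophil markers (CCR3 and IL5RA, 2 of 5 in the table) of 167, 194 and 180 CPM.

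**Figure D4:**
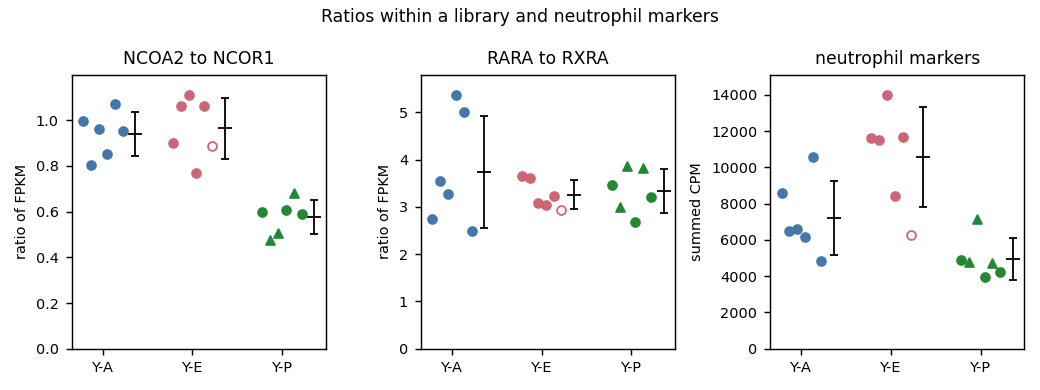
FPKM ratio of NCOA2 to NCOR1, FPKM ratio of RARA to RXRA and summed CPM of the neutrophil markers (vertical axes from 0) by stage; symbols as in the plot of gene levels by library, bars show the mean ± SD. The 6 Y-P libraries of the NCOA2 to NCOR1 ratio sit between 0.474 and 0.683, below all other libraries, while the RARA to RXRA ratio overlaps in all stages.

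The rest of the retinoid pathway was examined in lists of 135 genes, of which 110 were in the table and 94 were tested. RARB, the third retinoic acid receptor and itself a classical retinoic acid target, was present at 7.07 ± 1.96, 6.82 ± 1.88 and 6.65 ± 0.889 CPM in Y-A, Y-E and Y-P, and its log2 fold change was -0.04 ± 0.21 in Y-P vs. Y-E (edgeR adjusted p = 0.933). The third RXR gene, RXRG, was not in the table. RARB was thus far below RARA, at 2.32 FPKM.

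Of the genes that make, carry and break down retinoids, 13 were tested and 1 passed in any comparison. It passed in Y-P vs. Y-E, where 8.68% of all tested genes passed as lower. RDH13, a retinol dehydrogenase family member, was lower in Y-P vs. Y-E at -1.12 ± 0.25 (edgeR adjusted p = 0.00635), with 8.71 CPM in Y-E and 4.00 CPM in Y-P. RDH11 and DHRS3, which reduce retinal, had 0.35 ± 0.14 and -0.01 ± 0.20, with adjusted p of 0.0976 and 0.988. DHRS9, which oxidizes retinol, had -0.38 ± 0.16 (adjusted p = 0.124). CRABP2, which carries retinoic acid to the nucleus, had 4.20, 4.13 and 3.64 CPM in the 3 stages.

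RDH10, the main retinol oxidase of embryos, had -0.15 ± 0.17 (edgeR adjusted p = 0.618), and RDH5 0.90 ± 0.41 (adjusted p = 0.148) at under 1 CPM. The carotenoid-cleaving BCO1 and BCO2 had 0.17 ± 0.36 and 0.41 ± 0.25, RETSAT, which saturates retinol, 0.05 ± 0.13, and DGAT1, which can esterify retinol, -0.01 ± 0.15, all in Y-P vs. Y-E. FABP5, an alternative carrier of retinoic acid, had 0.58 ± 0.30 and RBP4, the plasma carrier of retinol, -0.93 ± 1.28 at under 1 CPM. ALDH1A2 and ALDH1A3, which make retinoic acid, and CYP26A1 and CYP26B1, which clear it, had at most 19 counts in any library and were not tested. ALDH1A1, another enzyme that makes retinoic acid, was not analysed here.

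Of 10 tested genes known as targets of retinoic acid, 0 passed in any comparison in edgeR, and the ones named here were chosen after their values were seen. The integrin chains ITGA4 and ITGB7, the latter part of the gut-homing integrin of lymphocytes, were abundant, at 933 to 1100 and 861 to 1100 mean CPM, and had -0.24 ± 0.21 and -0.31 ± 0.11 in Y-P vs. Y-E (adjusted p = 0.476 and 0.0794). CCR9, the gut-homing chemokine receptor, had 0.66 ± 0.24 (adjusted p = 0.076). CEBPE, which acts in granulocyte maturation, had -0.44 ± 0.25 (adjusted p = 0.272), and TGM2, the tissue transglutaminase, -0.56 ± 0.32 (adjusted p = 0.273). RARRES1 had the largest difference of these genes, -1.39 ± 0.64 (edgeR adjusted p = 0.151), at 0.403 to 1.06 mean CPM, and ASB2 had -0.71 ± 0.45 (adjusted p = 0.317). RARB, DHRS3 and CRABP2, given above, were the other members of that list.

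Among the nuclear receptors that pair with RXR, 3 of 10 tested genes passed as lower in Y-P vs. Y-E and 0 as higher. Of all tested genes, 8.68% passed as lower and 5.77% as higher. NR1H3, the oxysterol receptor LXR alpha, was lower at -1.14 ± 0.28 (edgeR adjusted p = 0.0106), PPARA at -0.85 ± 0.22 (adjusted p = 0.0129) and PPARD at -0.50 ± 0.12 (adjusted p = 0.0105). NR1H3 also passed in Y-P vs. Y-A at -1.01 ± 0.28 (adjusted p = 0.0371), as 1 of 10, where 3.61% of all tested genes passed as lower. Of 16 other nuclear receptors tested, 0 passed edgeR in any comparison.

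The other coactivators gave 6 of 26 tested genes lower and 0 higher in Y-P vs. Y-E, against 8.68% and 5.77% of all tested genes. The acetyltransferases EP300 and CREBBP, which p160 coactivators bring to receptors, had -0.90 ± 0.16 (edgeR adjusted p = 0.00167) and -0.83 ± 0.18 (adjusted p = 0.00526). MED13, a Mediator subunit, had -0.56 ± 0.16 (adjusted p = 0.0279), and KMT2C, a histone methyltransferase, -0.55 ± 0.18 (adjusted p = 0.0411). EP300 and CREBBP were the 2 that passed in Y-P vs. Y-A, at -0.74 ± 0.16 (adjusted p = 0.0146) and -0.62 ± 0.18 (adjusted p = 0.0466). In that comparison 3.61% of all tested genes passed as lower. Without Y-E replicate 6, 4 of 26 passed in Y-P vs. Y-E, all lower, against 8.03% of the tested genes.

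Of 21 other corepressors tested, 8 were lower and 3 higher in Y-P vs. Y-E, against 8.68% and 5.77% of all tested genes. The 4 with the smallest adjusted p in edgeR were CTBP2 at -0.75 ± 0.13 (adjusted p = 0.00164), RERE at -0.96 ± 0.17 (adjusted p = 0.00178), RCOR1, the scaffold of the CoREST complex, at -0.83 ± 0.15 (adjusted p = 0.0019) and the deacetylase HDAC5 at -0.65 ± 0.13 (adjusted p = 0.00327). The 3 that were higher were KDM1A at 0.40 ± 0.10 (adjusted p = 0.0168), SAP18 at 0.47 ± 0.13 (adjusted p = 0.0218) and HDAC3, the deacetylase partner of NCOR1, at 0.36 ± 0.10 (adjusted p = 0.0262), and they are named after their values were seen, as the only ones in that direction. Without Y-E replicate 6, 7 were lower and 3 higher, where 8.03% of the tested genes passed as lower. CTBP2 and RCOR1 passed as lower in Y-P vs. Y-A, as did 3.61% of all tested genes.

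Over all 7 lists, 0 genes passed in Y-E vs. Y-A, 5 as lower and 0 as higher in Y-P vs. Y-A, and 18 as lower and 3 as higher in Y-P vs. Y-E, against the 3.61% lower and 2.22% higher, and the 8.68% lower and 5.77% higher, of all tested genes. Without Y-E replicate 6, 15 passed as lower and 3 as higher in Y-P vs. Y-E, where 8.03% of the tested genes passed as lower. The direction depended on the scaling. With library totals as the only scaling, 6 of 9 passing genes were higher against anestrus and 10 of 19 against estrus. With Y-P replicates 1, 4 and 6 only, 0 passed in Y-P vs. Y-A and 9 in Y-P vs. Y-E. With the replicate number as a block, 9 passed in Y-P vs. Y-A, 1 higher and 8 lower.

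Single libraries moved these counts too. In Y-P vs. Y-A, 2 genes of the lists passed without Y-A replicate 5 or without Y-P replicate 2, 3 or 5, 3 without Y-A replicate 6 or Y-P replicate 4, and 8 when Y-P replicate 1 was left out. Against estrus, 13 passed without Y-E replicate 3 or 5 or without Y-P replicate 3 or 5.

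**Figure D5:**
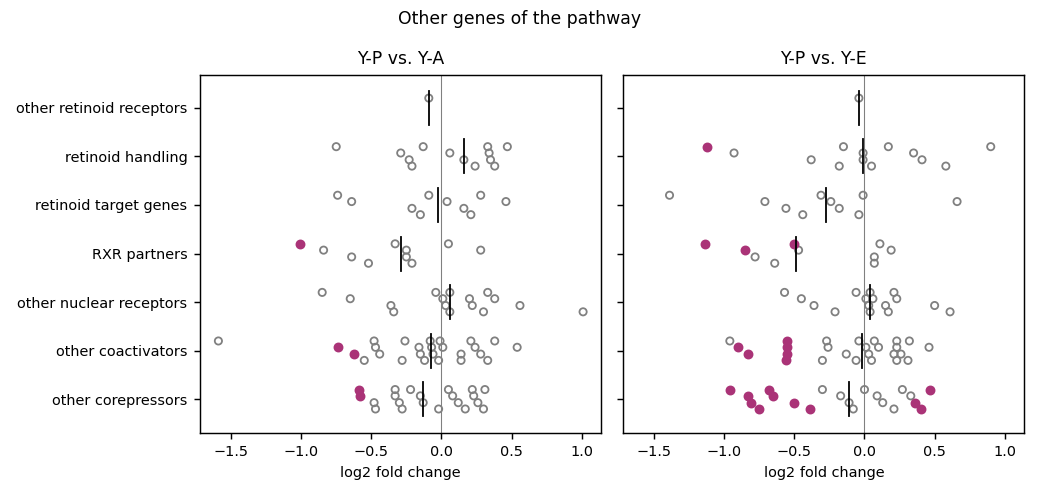
Log2 fold change (horizontal axis) of each tested gene of the 7 pathway lists in the 2 comparisons of pregnancy; filled points passed at an adjusted p under 0.05, open points did not, and the vertical line is the median of the list. Against estrus, 18 filled points lie below 0 and 3 above, all 3 of them corepressors, while the retinoid target genes have none.

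The genes whose profile over the 18 libraries was most like each of the 9 were found by the root mean square difference of centred log2 CPM. For RARA these were ELL at 0.12 and FGR at 0.13, against its own SD of 0.52. RARG was the fourth nearest gene to RARA, at 0.17. For RARG they were MKRN1 at 0.12 and TTC7A at 0.13, for RXRA ZBTB7B at 0.18 and MIDN at 0.21, and for RXRB LIN37 and COMMD7, both at 0.14.

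NCOR1 and NCOA3, a corepressor and a coactivator, were close to each other, at 0.08, NCOA3 being the second nearest gene to NCOR1 after STK10 at 0.07. CDK12 at 0.07 and ANKHD1 at 0.08 were nearest to NCOA3, TENT4B at 0.09 and CDK13 at 0.10 to NCOA1, MARF1 at 0.17 and the unnamed ENSBGRG00000009909 at 0.18 to NCOA2, and PUM2 and CHD9, both at 0.17, to NRIP1. Of these 18 nearest genes, 11 were found again without Y-E replicate 6. The profiles share the libraries and their depth, so the likeness is a description.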

How the data were processed

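Whole-blood RNA-seq of 18 libraries was used. According to the study's methods and processing notes, the authors trimmed reads with cutadapt 1.9, aligned them with HISAT2 2.2.1 to the *Bos grunniens* genome and assembled transcripts with StringTie 2.1.6. The deposited table holds, for each gene, a raw count and an FPKM value (scaled by gene length and mapped reads by the authors) per library; how the counts were made, and whether by strand, is not given in the sources used here. Columns were assigned to stages by the sample titles.

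Counts were tested with the quasi-likelihood test of edgeR 4.0.16 with TMM scaling and its low-count filter. Stage was the only factor, over all 18 libraries and 3 comparisons, with Benjamini-Hochberg adjustment. A run of the test on simulated counts covered Y-P vs. Y-E only. The simulated counts had the same spread for all genes and no hemoglobin or gene-length shift, so that run cannot speak to those features of these libraries. FPKM served for levels between genes and, as log2(FPKM + 1) or log2(FPKM + 0.1), for limma 3.58.1. Alternatives were DESeq2 1.42.0, other scalings and filters, a replicate block, 2 stages only and leaving out each library. Gene-length correction, Y-P replicates 1, 4 and 6 only, and the block without Y-E replicate 6 were added after seeing the data. The 9 genes, the gene lists and the tests were chosen with earlier results of these data known. Named were all 9 genes, tested retinoid receptor and handling genes, up to 4 passing genes of the smallest adjusted p per other list, the 2 highest markers per cell type and the 2 nearest genes per member. Same-numbered Y-E and Y-A libraries deviated together from their stage means (r 0.11 to 0.515, 6 of 6 pairs over 0.1) and were taken as paired, from the data and not from the labels; the Y-P numbers did not meet this. No library pair held identical values. Counting error alone limits a gene at 0 to 3 counts, 0.062 to 0.0992 CPM.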

Additional observations from a re-analysis of the deposited data

Results flagged for a closer look

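Of 60 groups of 6 libraries examined, 8 held a library whose gap to its nearest neighbour was above 0.625 of the range of the group, Dixon's 95% limit for 6 values; chance gives about 1 in 20. For the 9 genes these were RARA in Y-P, highest in replicate 6 with 647 CPM and next 508 CPM, and RXRB in Y-A, lowest in replicate 6 with 53.7 CPM and next 85.1 CPM. The neutrophil markers summed to 7140 CPM in Y-P replicate 3, against 4870 CPM in the next library. The erythroid markers summed to 11100 CPM in replicate 6 of Y-A, 4720 CPM in replicate 6 of Y-E and 129 CPM in replicate 6 of Y-P, against 2080, 185 and 72.5 CPM in the next library of each stage. The eosinophil markers summed to 340 CPM in Y-E replicate 2, next 217 CPM. The log2 level of long minus short genes was 0.163 in Y-A replicate 6, next 0.0232.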

How the results depend on the processing

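The 27 log2 fold changes of the 9 genes were computed under 30 alternatives each. Of the 810 values, 753 moved by less than the SE of the fold change and 57 by more, and 0 of those that had passed changed sign. In Y-E vs. Y-A, 0 genes passed except for 1 in DESeq2. In Y-P vs. Y-A, 5 passed, and 1 with Y-P replicates 1, 4 and 6 only, 2 with library totals as the only scaling, 2 with limma on FPKM at either pseudocount, and 3 to 5 when 1 library was left out (3 without Y-A replicate 5 or Y-P replicate 4). The count of 6 in Y-P vs. Y-E was 4 with library totals, limma or Y-P replicates 1, 4 and 6 only. Beyond the shares printed above, the share of all tested genes under these settings or the replicate block is not given. Nothing is therefore read from these changes in count. The genes of the pathway lists passing in Y-P vs. Y-A, 5, became 11 with DESeq2, 9 with library totals, 14 and 15 with limma (pseudocounts 0.1 and 1, 12 and 13 of them higher), 0 with Y-P replicates 1, 4 and 6 only, and 2 to 8 when 1 library was left out. In Y-P vs. Y-E they went from 21 to 9 with Y-P replicates 1, 4 and 6 only and to 13 to 25 when 1 library was left out; with limma, 14 of 22 were higher. Of the 18 nearest genes, 11 were shared without Y-E replicate 6. Other causes of these shifts were not tested.

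With the replicate number as a block, 0, 5 and 6 of the 9 genes passed (estrus against anestrus, pregnancy against anestrus, pregnancy against estrus), and the list genes in Y-P vs. Y-A went from 5 to 9. That fit held the Y-P libraries in the same blocks, and no fit blocked Y-E and Y-A alone. In Y-E vs. Y-A, where the numbers were taken as pairs from the data, the block changed no call of the 9 genes or of the lists. In the comparisons of Y-P the correlation of same-numbered libraries was -0.0492 to 0.369 against Y-A and -0.0544 to 0.40 against Y-E. In each, 4 of 6 pairs were over 0.1, which missed the cut of all 6, so the Y-P libraries were not taken as paired. In each, 4 of 6 libraries were nearest to their own number, and whether the Y-P numbers mark the same cows cannot be told from the labels.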
